A study of Mus musculus with 3 samples.

Results

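The genes described here are 9 writers, erasers and readers of DNA methylation, measured in activated regulatory T (Treg) cells of the mouse. They are the DNA methyltransferases Dnmt1, Dnmt3a and Dnmt3b, the TET dioxygenases Tet1, Tet2 and Tet3, the thymine DNA glycosylase Tdg, and the methyl-CpG binding proteins Mbd1 and Mbd2. They were taken by symbol from the 55536 annotated genes of the larger gene table, and 84 annotated transcripts belong to them. The data were 3 polyA-selected RNA-seq libraries, labelled as technical replicates 1, 2 and 3 of 1 biosample of primary cells from 1 male mouse aged 9 weeks. The labels name no genotype, strain, treatment or sorting step, and no second group, so nothing here compares conditions. Every SD with n = 3 below is the spread between libraries of the same biosample and holds no difference between animals.

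Methylation of cytosine in CpG sites is copied to the new strand after replication by Dnmt1, which is brought to hemimethylated DNA by Uhrf1, while Dnmt3a and Dnmt3b set new methylation. TET enzymes oxidise methylcytosine, Tdg cuts out the further oxidised bases, and base excision repair puts back plain cytosine. Mbd1 and Mbd2 bind methylated CpG, and Mbd2 joins the NuRD complex, a chromatin remodeller with histone deacetylases. In Treg cells this machinery is known above all for an intronic enhancer of Foxp3, which is demethylated in stable Treg cells and in whose demethylation Tet2, Tet3 and Mbd2 have been implicated.

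Expected counts, which split reads that match several genes, summed to between 31406146 and 37201436 over annotated genes. All 6 Treg markers checked and all 7 pan-T markers were detected in every library. Summed TPM was 2672 to 2743 for the Treg markers, 43.7 to 56.2 for 6 B cell markers, 54.1 to 57.8 for 7 macrophage markers and 637 to 890 for 6 erythroid markers. Of these lists 5 of 6 B cell, 5 of 7 macrophage and 6 of 6 erythroid markers were detected. Cd79b was the highest B cell marker at a mean of 29.3 TPM and Pax5 the lowest at 0.0867. Lyz2, at 24.9 TPM, and Cd14, at 0.273, were the ends of the macrophage list, and the globin genes made up nearly all of the erythroid sum. The part that other cells play in the values below was not tested. In bulk RNA, more cells expressing a gene and more RNA per cell cannot be told apart.

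Several of these genes have more than 1 start site, and the start sites of Dnmt1 and Dnmt3a carry results below, so their promoter sequences are shown first. Each is the 250 bases before a RefSeq start on GRCm38.p6, read 5′ to 3′ on the gene's strand, with CpG dinucleotides (CG, which reads the same on both strands) in capitals.
Dnmt1, before the start of transcript Dnmt1-201, chr9:20952980-20953229, minus strand: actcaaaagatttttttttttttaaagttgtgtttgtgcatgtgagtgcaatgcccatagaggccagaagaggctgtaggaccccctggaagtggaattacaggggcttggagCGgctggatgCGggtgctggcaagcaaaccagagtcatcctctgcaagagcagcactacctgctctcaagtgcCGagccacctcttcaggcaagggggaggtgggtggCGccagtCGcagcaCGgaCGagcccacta
Dnmt1, before the start of transcript Dnmt1-202, chr9:20959889-20960138, minus strand: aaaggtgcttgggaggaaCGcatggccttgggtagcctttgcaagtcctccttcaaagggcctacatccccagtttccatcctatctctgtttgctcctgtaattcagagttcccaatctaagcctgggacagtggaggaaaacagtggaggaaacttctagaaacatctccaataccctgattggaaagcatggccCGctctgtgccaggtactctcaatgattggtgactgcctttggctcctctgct
Dnmt3a, before the upstream start near transcript Dnmt3a-201, chr12:3806730-3806979, plus strand: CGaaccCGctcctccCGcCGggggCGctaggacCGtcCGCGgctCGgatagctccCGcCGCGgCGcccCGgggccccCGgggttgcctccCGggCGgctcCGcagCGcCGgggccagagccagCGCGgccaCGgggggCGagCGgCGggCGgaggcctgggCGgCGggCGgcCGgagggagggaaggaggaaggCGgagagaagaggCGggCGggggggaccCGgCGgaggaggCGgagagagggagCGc
Dnmt3a, before the internal start of transcript Dnmt3a-203, chr12:3891494-3891743, plus strand: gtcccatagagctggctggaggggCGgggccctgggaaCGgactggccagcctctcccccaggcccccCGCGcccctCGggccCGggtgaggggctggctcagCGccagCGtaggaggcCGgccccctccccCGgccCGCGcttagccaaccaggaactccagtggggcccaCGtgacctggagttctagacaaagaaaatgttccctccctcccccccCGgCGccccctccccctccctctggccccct
The windows shown held 7 and 2 CpG for Dnmt1, and 38 and 15 for Dnmt3a. The other window of each gene, not shown because it overlaps a first exon, held more. The end of the internal Dnmt3a window shown also lies in a first exon, that of Dnmt3a-205, which starts at chr12 position 3891728. The window at chr9:20952624-20952873, before the start of Dnmt1-203 and inside the start cluster of Dnmt1-201, held 26 CpG, with fewer in 90.4% of promoters, and that before Dnmt3a-218 (chr12:3806910-3807159) held 40. Over all 32841 RefSeq promoters of this length, 92.1% held at least 1 CpG and the median was 6. Fewer CpG than in the window were found in 53.7% of them for Dnmt1-201, 18.8% for Dnmt1-202, 98.1% for the upstream Dnmt3a start and 72.7% for the internal one. RefSeq windows matched 7 of the 9 genes, 11 in all, and Tet2 had the most CpG (51, with fewer in 99.9% of promoters). A CpG count describes the letters of a window, and methylation itself was not measured in these libraries.

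All 9 genes were detected, taken as at least 1 TPM (a level corrected for transcript length and scaled to the same total in each library) in all 3 libraries. By the same rule 22.7% of all annotated genes and 47.3% of protein-coding genes were detected. The median over detected protein-coding genes was 29.2 TPM, and 7 of the 9 stood above it. Levels ranged from Mbd2 at 391.8 ± 21.3 TPM to Dnmt3b at 5.67 ± 0.416 TPM (SD, n = 3).

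Among the writers, Dnmt1 (chr9:20907209-20959888, minus strand) had 77.13, 76.47 and 73.47 TPM in libraries 1, 2 and 3, a mean of 75.7 ± 1.95. The values lay close together, and Dnmt1 made up 59.1% ± 2.64 of the summed methyltransferase TPM. Dnmt3a (chr12:3806007-3914443, plus strand) had 43.92, 45.06 and 51.59 TPM, a mean of 46.9 ± 4.14, with library 3 the highest. Dnmt3b (chr2:153649450-153687730, plus strand) had 5.71, 5.24 and 6.07 TPM. Dnmt3b was thus the lowest of the 3 writers in each library, from 355 to 478 expected counts. The log2 ratio of TPM was 0.70 ± 0.16 for Dnmt1 over Dnmt3a, 3.74 ± 0.14 for Dnmt1 over Dnmt3b and 3.04 ± 0.09 for Dnmt3a over Dnmt3b. All 3 ratios had 1 sign in every library and exceeded 2 SD, the rule used here for a difference beyond the spread. No p-value is given for a ratio, because flipping signs over 3 libraries in an exact test gives no p under 0.25.

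Among the erasers, Tet3 (chr6:83362373-83459084, minus strand) had 42.39, 35.57 and 38.38 TPM, a mean of 38.8 ± 3.43. Tet2 (chr3:133463679-133545139, minus strand) had 28.30, 30.37 and 34.64 TPM, a mean of 31.1 ± 3.23. Tet3 was above Tet2 in each library, but the log2 ratio of Tet2 over Tet3, -0.32 ± 0.23, did not exceed 2 SD. By transcripts with a complete coding sequence alone the 2 genes lay further apart, at 19.13, 19.04 and 19.13 TPM for Tet3. Tet2 had 9.41, 8.59 and 10.39 TPM by that measure. Tet1 (chr10:62804570-62908996, minus strand), best known from pluripotent cells, had 7.82, 4.80 and 7.55 TPM. Library 2 was the low one, and Tet1 lay below both other TET genes in every library, with log2 ratios of 2.24 ± 0.40 for Tet2 over Tet1 and 2.56 ± 0.29 for Tet3 over Tet1. Summed TPM was 128 ± 2.52 for the writers and 76.6 ± 5.18 for the TET genes, a log2 ratio of 0.75 ± 0.08. Tdg (chr10:82629828-82650799, plus strand) had 44.66, 45.10 and 50.61 TPM, with a log2 ratio over Tet2 of 0.59 ± 0.06.

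Of the readers, Mbd2 had 413.22, 370.62 and 391.44 TPM, and stood at rank 336 of 22028 protein-coding genes. Its lowest library lay above every TPM value of the other 8 genes, and Mbd2 made up 56.4% ± 1.14 of the summed TPM of all 9. Mbd1, which also has zinc fingers that bind CpG without methylation, had 53.49, 52.93 and 48.27 TPM, a mean of 51.6 ± 2.87. The TPM ratio of Mbd2 to Mbd1 was 7.60-fold, a log2 ratio of 2.93 ± 0.11. Mbd2 also lay above Mbd3, the related NuRD subunit that binds methylated DNA weakly in mammals, by 1.87 ± 0.13 on the log2 scale.

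**Figure D1:**
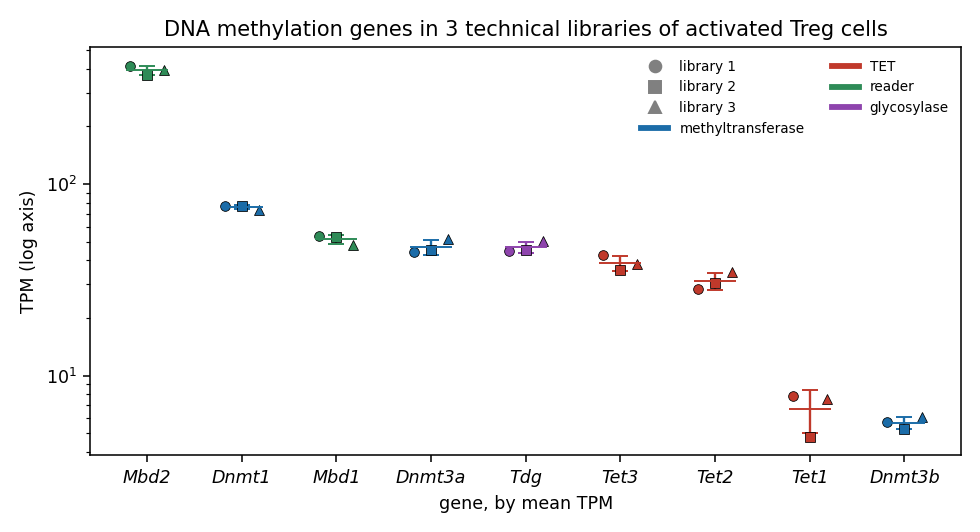
TPM on a log axis for the 9 genes, ordered by mean. Markers are the 3 technical libraries, horizontal bars the mean and whiskers the SD; Mbd2 lies above all others, and Tet1 and Dnmt3b lie below 10 TPM in all 3 libraries.

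In the order of mean TPM, Mbd2, Dnmt1, Mbd1, Dnmt3a, Tdg, Tet3, Tet2, Tet1 and Dnmt3b followed each other. Neighbours were apart beyond their spread at 3 of the 8 steps. These were Mbd2 over Dnmt1 (log2 ratio 2.37 ± 0.08), Dnmt1 over Mbd1 (0.55 ± 0.04) and Tet2 over Tet1 (2.24 ± 0.40). From Mbd1 down to Tet2, and between Tet1 and Dnmt3b, no neighbouring pair was apart beyond its spread, and Dnmt3a and Tdg had the closest means, 46.9 and 46.8 TPM.

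Read counts of 8 of the 9 genes differed between the technical libraries beyond counting noise by a chi-square test (Benjamini-Hochberg adjusted over all genes tested), against 65.8% of the 15945 genes tested. Tet3 was the exception, with an adjusted p of 0.906. The smallest adjusted p was that of Tet1, 2.70e-09, from 362, 302 and 547 expected counts in totals of 31406146, 32553270 and 37201436. After the statistic was divided by the median overdispersion of all genes, none of the 9 passed (adjusted p from 0.593 to 1) and 295 of all genes did. With the counts of the smaller gene table, 3 of the 9 passed, against 33.5% of 11469 genes. Mbd2 had 2288, 2286 and 2348 counts there, against 12477, 12011 and 14669 expected counts. Spread between libraries is therefore not measured alike by both tables. Beyond counting noise, the coefficient of variation of depth-scaled counts was 22.5% for Tet1, 9.00% for Tet2, 3.38% for Dnmt1 and 3.93% for Mbd2. The median over genes with mean counts from 300 to 20000 was 5.85%.

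The gene levels join transcripts of unlike kinds, and for some of these genes most of the TPM was assigned to transcripts without a complete coding sequence. Complete coding transcripts are those annotated as protein-coding with no end of the coding sequence or of the transcript marked as missing. Other transcripts annotated as protein-coding are called incomplete. The complete coding transcripts took 88.5% ± 1.45 of the TPM of Dnmt1 and 83.7% ± 3.41 of Tdg. They took 31.6% ± 10.2 of Dnmt3a, 30.5% ± 2.52 of Tet2 and 11.6% ± 2.82 of Tet1. The same transcripts held larger shares of the expected counts, 66.2% for Dnmt3a, 77.2% for Tet2 and 57.8% for Tet1. TPM divides by length, so that a short transcript needs few reads for a high level. Mbd1 was the gene with a smaller share by counts than by TPM, 50.9% against 53.6%.

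**Figure D2:**
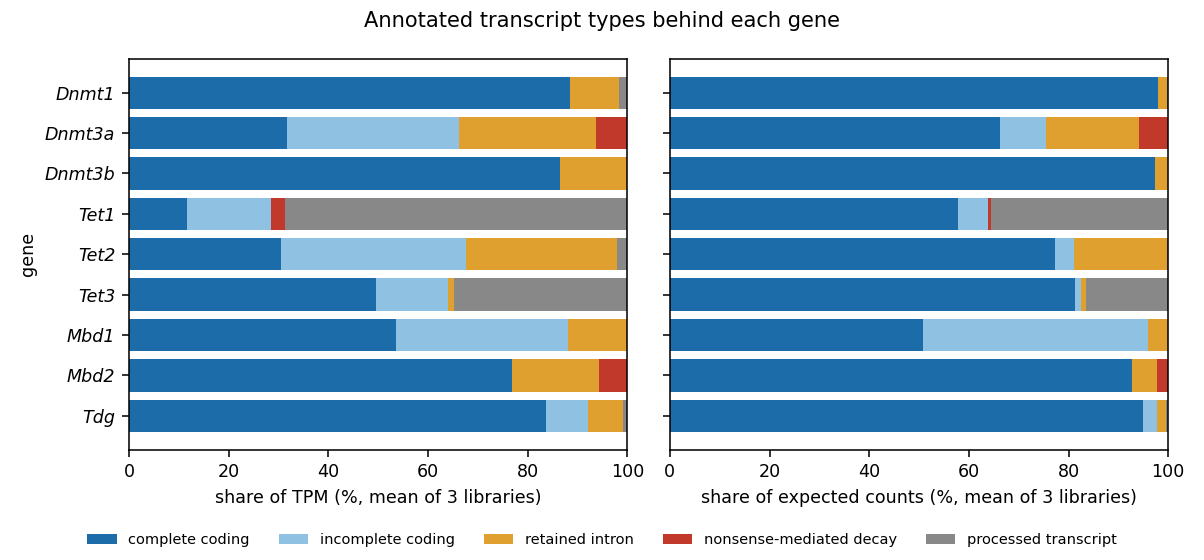
Mean share of each gene's TPM (left) and of its expected counts (right), in percent, assigned to 5 kinds of annotated transcript. For Tet1 the complete coding transcripts hold 11.6% of the TPM and 57.8% of the counts, and for Tet2 30.5% and 77.2%.

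Tet2 shows this most plainly. Tet2-205, an annotated coding fragment of 423 bases marked as incomplete, had 10.12, 11.35 and 13.24 TPM in the 3 libraries. Tet2-201, of 9179 bases and 1912 codons, had 9.41, 8.59 and 10.39 TPM. The fragment had the higher TPM in every library while holding 3.86% ± 0.327 of the expected counts of the gene, against 77.2% for Tet2-201. A transcript with a retained intron, Tet2-210, had 20.7% ± 1.54 of the TPM. Of its 50-base windows (50 bases being the read length), 89.7% occur in no other transcript of the genes described here.

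The leading transcript of Tet1 was Tet1-202, a processed transcript of 1505 bases with no coding sequence, whose 3 exons lie inside the gene. It had 5.02, 3.52 and 5.19 TPM, or 68.8% ± 4.65 of the gene. The fragment Tet1-205 held a further 11.9% ± 4.41 of the TPM. Complete coding Tet1, mainly Tet1-206, was at 0.66, 0.61 and 1.04 TPM, so that by complete coding transcripts Tet1 was the lowest of the 9 genes and under 1 TPM in 2 libraries. Of the 1456 windows of Tet1-202, 167 occur in no other annotated transcript, and reads from the rest can belong to either kind.

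The leading transcript of Tet3 by TPM was Tet3-201, a processed transcript with no coding sequence that starts at chr6 position 83441678, with 14.69, 11.25 and 14.64 TPM. It held 34.8% ± 3.25 of Tet3 TPM and 16.6% ± 2.21 of its counts. The fragment Tet3-204 held 14.6% ± 3.98 of the TPM and 1.19% of the counts, and complete coding transcripts held 49.5% ± 4.22 of the TPM. These were split between starts. Tet3-202, starting at chr6 position 83441675, encodes 1668 codons and had 9.80, 11.01 and 10.18 TPM. Tet3-203, starting at 83456392, has a longer coding sequence of 1803 codons and had 9.33, 8.03 and 8.95 TPM. Tet3-202 was the higher in each library, at 54.1% ± 3.38 of complete coding TPM, and the deposited credibility intervals of the posterior mean TPM overlapped in library 1, did not in library 2 (9.77 to 10.69 against 6.82 to 8.22) and were just apart in library 3. Tet3 is known to be made with and without an N-terminal CXXC domain that binds CpG. The tables give the transcripts no such label, and the domain was not looked for. The summed complete coding TPM of Tet3, 19.13, 19.04 and 19.13, had the smallest SD for its mean of the 9 genes.

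Dnmt1 was divided between 2 main coding transcripts with different first exons, whose upstream sequences are printed above. Dnmt1-201, with 1620 codons, begins coding in its first exon (chr9:20952708-20952979) and had 44.61, 44.45 and 37.89 TPM. Dnmt1-202, with 1501 codons and a first exon at chr9:20959733-20959888, had 23.90, 22.09 and 25.07 TPM. In every library Dnmt1-201 was the higher, and Dnmt1-202 held 34.4%, 32.8% and 39.2% of complete coding TPM. Their credibility intervals did not overlap in any library (35.4 to 45.3 against 17.7 to 27.7 TPM in library 1, 31.3 to 38.5 against 20.2 to 27.5 in library 3). Dnmt1 is known for an oocyte form made from another first exon and lacking part of the N-terminus, but the annotation used here does not name forms.

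The first exon is not the only place where these transcripts differ. Exon 5 of Dnmt1-201 (chr9:20940476-20940554) begins 3 bases earlier than that of Dnmt1-202 (chr9:20940476-20940551). The junction is shown with 25 bases on each side and with the extra bases in capitals, since reads across it also tell the transcripts apart.
Dnmt1-201, exon 4 to exon 5: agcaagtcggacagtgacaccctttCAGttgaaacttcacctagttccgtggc
Dnmt1-202, exon 4 to exon 5: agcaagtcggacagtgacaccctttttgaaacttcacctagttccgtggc
Of the 204 windows of Dnmt1-202 that Dnmt1-201 lacks, 155 begin in the first exon and 49 cross this junction. Of the 323 windows of Dnmt1-201 that Dnmt1-202 lacks, 271 begin in the first exon and 52 lie at the junction. None of the 4 complete coding transcripts joins the first exon of Dnmt1-201 to the shorter exon 5. The coding transcripts with the longer exon, Dnmt1-201 and Dnmt1-207, held 55.8% ± 3.70 of the TPM of the gene, and those with the shorter, Dnmt1-202 and Dnmt1-203, held 32.6% ± 2.78. Use of the upstream first exon and use of the shorter exon 5 cannot be told apart in these tables, so the level of Dnmt1-202 is not by itself a measure of its promoter. The retained-intron Dnmt1-204 held 5.25% ± 2.30 of Dnmt1 TPM.

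Dnmt3a had its complete coding TPM in 2 pairs of transcripts. Dnmt3a-201 and Dnmt3a-218, from the upstream starts and with 908 codons, summed to 8.08, 6.83 and 7.91 TPM. Dnmt3a-203 and Dnmt3a-205, from the internal start near chr12 position 3891744 and with 689 codons, summed to 7.81, 10.66 and 2.36 TPM. The upstream pair was steady, and the internal pair was above it in library 2 and below it in libraries 1 and 3. The internal pair held 44.4% ± 19.4 of the complete coding TPM but 18.4% of the complete coding counts. A shorter Dnmt3a protein from an internal promoter is known as Dnmt3a2. Only 16 of the 2279 windows of Dnmt3a-205 occur in no other transcript, and its credibility interval ran from 0 to 6.76 TPM in library 3. Where the internal pair was lowest, Dnmt3a-215, a transcript annotated as a target of nonsense-mediated decay, was highest, with 0.08, 1.15 and 8.05 TPM in the 3 libraries. Whether reads moved between these models was not tested.

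A further 43.7% ± 5.90 of Dnmt3a TPM was assigned to Dnmt3a-202, with a retained intron, and Dnmt3a-206, with an incomplete coding sequence. Both have a first exon ending at chr12 position 3806602. They held 22.1% ± 1.59 of the expected counts. Dnmt3a-206 has no 50-base window of its own, while 1260 of the 1895 windows of Dnmt3a-202 occur in no other transcript of the genes described here. Other genes share 33 of the 1895. The incomplete Dnmt3a-204 held 6.21% ± 3.07 of the TPM.

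**Figure D3:**
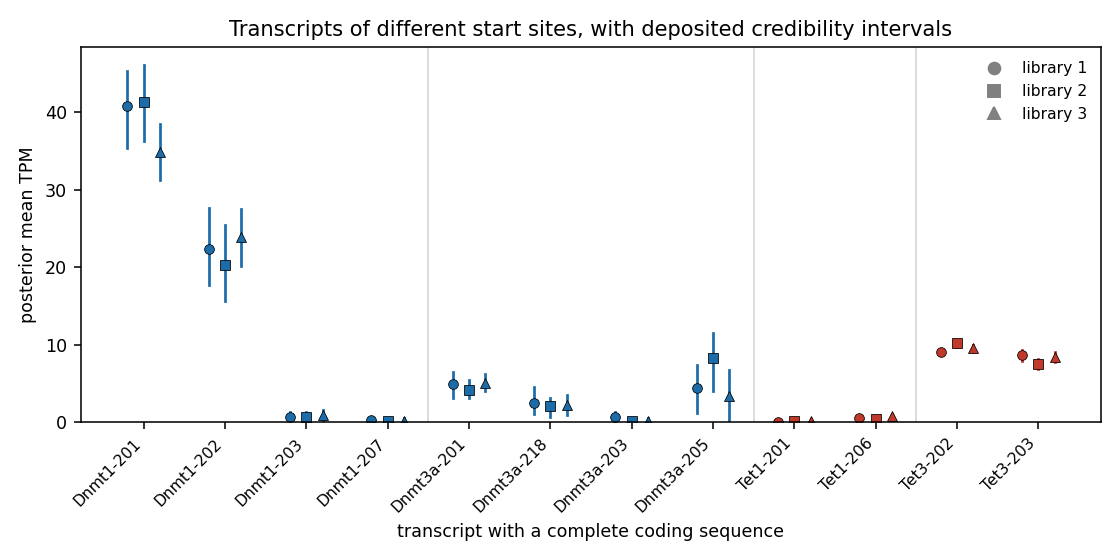
Posterior mean TPM of complete coding transcripts of Dnmt1, Dnmt3a, Tet1 and Tet3 in each library, with vertical lines for the credibility intervals deposited by the authors. The intervals of Dnmt1-201 lie above those of Dnmt1-202 in each library, while that of Dnmt3a-205 reaches 0 TPM in library 3.

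Dnmt3b had 10 complete coding transcripts from starts within 1 cluster, and none of them has a 50-base window found in no other transcript. Dnmt3b-207, with 860 codons, had 1.72, 2.10 and 1.22 TPM, and Dnmt3b-205, with 776 codons, had 2.38, 1.31 and 0.01 TPM. Dnmt3b-206, also with 776 codons, had 0, 0.96 and 1.95 TPM. No single splice form led in all 3 libraries, and Dnmt3b-203 (11.1% of TPM), Dnmt3b-209 (6.11%) and the retained-intron Dnmt3b-211 (8.59%) were the others above 5%. Of the distinct windows of Dnmt3b, 9.81% also occur in Dnmt3c, a duplicate of Dnmt3b that works in male germ cells, and Dnmt3c was given 0 counts in all 3 libraries.

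For the readers, Mbd2-201, with 414 codons, had 309.59, 279.94 and 306.82 TPM. Mbd2-204, a retained-intron fragment of 494 bases, had 79.77, 62.85 and 60.13 TPM, which was 17.2% ± 1.98 of Mbd2 TPM and 4.87% ± 0.64 of its counts. Mbd1 was divided mainly between coding transcripts. Mbd1-204, marked as incomplete, held 34.3% ± 3.40 of TPM. Mbd1-202 with 644 codons held 32.8% ± 2.99 and Mbd1-201 with 588 codons 20.9% ± 3.52. Mbd2-203, a target of nonsense-mediated decay, held 5.75% ± 0.855 of Mbd2 TPM, and the retained-intron Mbd1-206 held 5.72% ± 2.36 of Mbd1. Tdg-201, with 397 codons, held 75.9% ± 1.32 of Tdg TPM, Tdg-208, with 421 codons, 7.83% ± 2.20, and the incomplete Tdg-210 7.44% ± 1.74.

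By complete coding transcripts alone the order changed below the first 2 places. It ran Mbd2 (300.7 ± 16.2 TPM), Dnmt1 (67.0 ± 2.73), Tdg (39.1 ± 1.59), Mbd1 (27.6 ± 0.266), Tet3 (19.1 ± 0.052), Dnmt3a (14.6 ± 3.79), Tet2 (9.46 ± 0.901), Dnmt3b (4.90 ± 0.473) and Tet1 (0.770 ± 0.235). Tdg rose from the fifth place to the third, and Dnmt3a went from the fourth to the sixth.

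The levels of Mbd2 and Tdg depended on which deposited gene table was read. The smaller table, with whole-number counts, gave Mbd2 2288, 2286 and 2348, or 17.8% of its expected counts. It gave Tdg 87, 91 and 97, or 3.57%. The other 7 genes had from 39.8% (Mbd1) to 75.8% (Tet1) of their expected counts there. Over all genes the smaller table also held fewer counts, 8827129, 8758421 and 9555924 in libraries 1, 2 and 3. The expected counts over annotated genes were 31406146, 32553270 and 37201436. Of the 5556 distinct windows of Tdg, 41.2% also occur in other genes, chiefly the processed pseudogenes Tdg-ps (1636 windows), Gm9855 (876) and Gm5597 (832), and in Tdg-201 the share is 65.9%. The larger table gave these 3 pseudogenes at most 18.28 expected counts in any library against at least 2264 for Tdg, and no source used here says what the smaller table did with shared reads. With the smaller table Tdg fell below Tet2, at a log2 ratio of -3.94 ± 0.17 in place of 0.59 ± 0.06, and Mbd2 over Mbd1 shrank to 0.86 ± 0.03. Mbd2 also lost the first place there: the log2 ratio of Mbd2 over Dnmt1 was -1.06 ± 0.03 from counts with no length correction, against 2.37 ± 0.08 from TPM and 0.77 ± 0.09 from CPM of the larger table. Antisense genes overlap exons of Dnmt3a (Dnmt3aos) and Tet2 (Gm42567) with at most 3 counts, and Glt8d2 overlaps Tdg with at most 14.27. Mbd2 has no window in common with another gene. Low counts in the smaller table were not particular to Mbd2 and Tdg. The pan-T marker Cd3e had 1291, 1282 and 1294 counts there, against 36432.6, 36585.6 and 43305 expected counts. Cd2 had 2167, 2174 and 2163 against 28961, 29845 and 33461. For both, the smaller table changed little between libraries while expected counts were highest in library 3. The cause of these low shares was not tested.

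**Figure D4:**
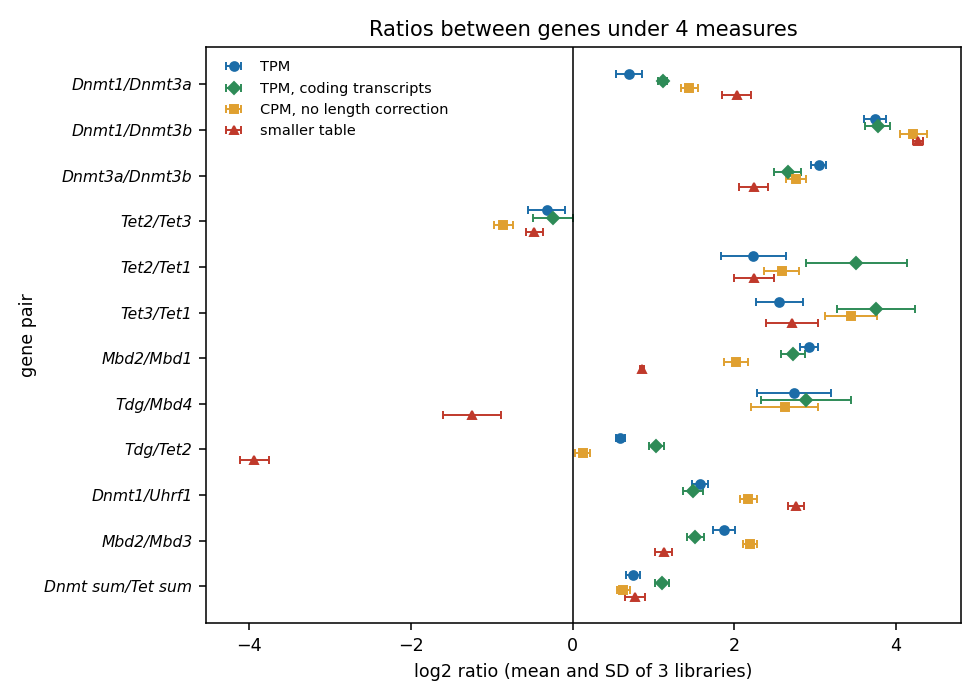
Log2 ratios between genes, mean and SD over the 3 libraries, from TPM, from TPM of coding transcripts (incomplete ones included), from CPM (counts scaled to the library total) without length correction and from the smaller table. The ratios keep 1 side of 0 under all 4 measures except Tdg/Mbd4 and Tdg/Tet2, which are negative in the smaller table.

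The partners of these genes were described from lists chosen by function. Of the other methyltransferase family, Dnmt3l and Dnmt3c had 0 counts in each library, and a floor of 3 counts per library allows up to 0.124 and 0.0656 TPM. Trdmt1, which methylates transfer RNA, had 11.6 ± 1.23 TPM. Dnmt3l is the cofactor of de novo methylation in germ cells.

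All 7 partners of maintenance methylation were detected, with a median of 35.5 TPM against 29.2 over detected protein-coding genes. Pcna, the replication clamp, had 149 ± 12.8 TPM and Uhrf2 had 91.5 ± 4.95. Hells, a remodeller needed for methylation of repeats, had 26.0 ± 1.27 TPM, and Uhrf1 had 26.16, 23.81 and 26.25 TPM. Dnmt1 exceeded Uhrf1 in each library, by 1.58 ± 0.10 on the log2 scale. All 10 S phase genes checked were detected too, at summed TPM from 825 to 869, and their part in the levels of Dnmt1 and its partners was not tested.

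Of 8 TET partners and cofactor enzymes 6 were detected. Ogt, a sugar transferase that binds TET proteins, had 252 ± 2.47 TPM, and Cxxc1 had 93.8 ± 6.42. Cxxc5, at 0.573 ± 0.0569 TPM, and Cxxc4, with 0, 0 and 8 counts, were the lowest. The Cxxc4 gene is known as the former CXXC exon of Tet2.

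In base excision repair and demethylation 13 of 14 genes were detected, with a median of 23.7 TPM. Gadd45b had 70.7 ± 8.68 TPM and Parp1 61.2 ± 2.81, while Ung had 1.94 ± 0.819 and Neil2 1.67 ± 0.805. Mbd4, the other glycosylase that removes thymine opposite guanine, had 9.61, 5.63 and 6.24 TPM. Tdg exceeded Mbd4 by 2.75 ± 0.46 on the log2 scale, a 6.71-fold ratio, although in the smaller table the sign was the opposite, -1.25 ± 0.36.

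All 10 genes listed as other readers were detected, Mbd4 again among them, and whether each binds methylated CpG was not tested. Mbd3 had 119.34, 91.03 and 112.16 TPM and Zbtb38, a zinc-finger reader, had 39.0 ± 4.25. Zbtb4 and Zbtb33 were the lowest, at 4.12 ± 0.401 and 1.32 ± 0.332 TPM. All 11 NuRD subunits were detected as well, with a median of 99.6 TPM. Rbbp4, a histone-binding subunit, had 286 ± 9.95 TPM and Hdac1 244 ± 10.8, while Mta1 had 29.8 ± 1.56 and Gatad2b 8.11 ± 0.641.

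**Figure D5:**
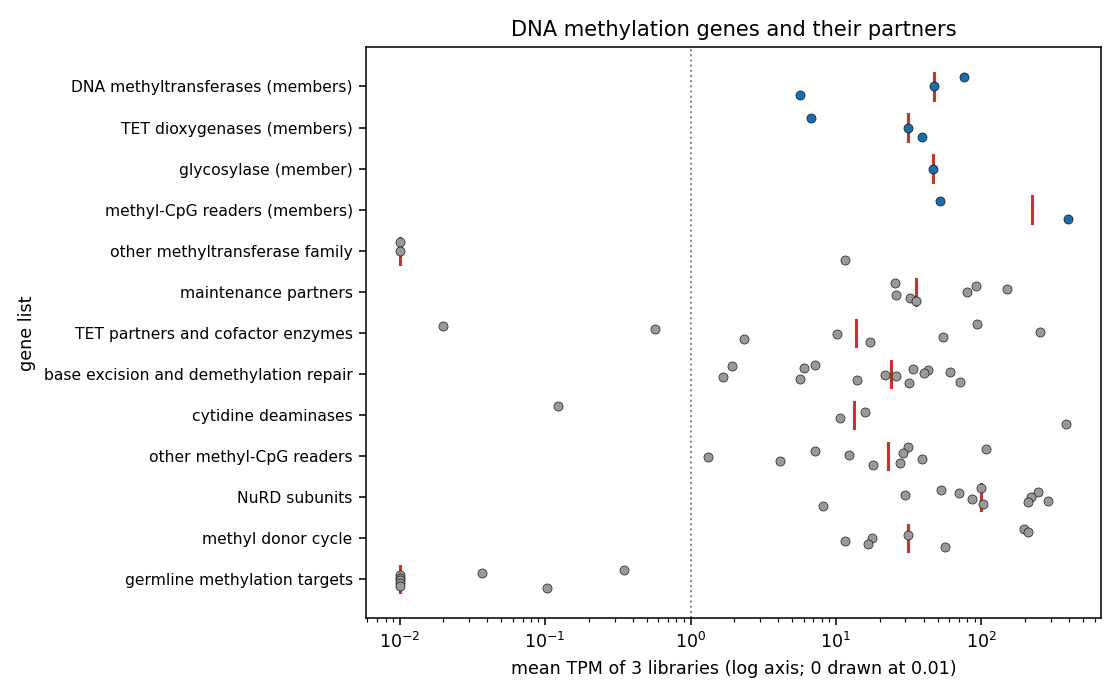
Mean TPM over the 3 libraries, on a log axis, of each gene in 13 lists. Blue points are the 9 genes described, grey points the partners, red lines the list medians and the dotted line 1 TPM, the detection level; germline genes lie to its left.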

How the data were processed

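Per the labels and the sample notes, the libraries were aligned to mm10. Expected counts and TPM were deposited by the authors per gene (the larger table) and per transcript on GENCODE M21, with posterior means, posterior SDs and credibility intervals whose level is not stated. A second, smaller gene table of whole-number counts was deposited on GENCODE M4. Aligner, quantifier and strand setting: not given in the sources used here. Rows without an annotated gene (0.125% to 0.182% of expected counts) were left out of totals and tests.

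Gene and transcript names came from GENCODE M21, promoters from the RefSeq table (GRCm38.p6). TPM was used as deposited, with no pseudocount. Pairs were called apart where 3 log2 ratios had 1 sign and the mean exceeded 2 SD. Rounded expected counts of genes with a summed count of at least 30 were compared by a chi-square test on 2 degrees of freedom with Benjamini-Hochberg adjustment at 0.05, tested on simulated data first. Alternatives were CPM, the smaller table, posterior means, a pseudocount of 1 TPM, TMM (edgeR 4.0.16), DESeq2 1.42.0 size factors, other filters and each library left out. A further alternative was coding transcripts, meaning all those annotated as protein-coding, with incomplete ones included. Python 3.11.15, scipy 1.17.1 and R 4.3.3 were used. Totals of at least 31406146 counts per library make counting error small for all but the lowest genes, and floors cover counting error only, since the labels describe no molecular identifiers.

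The genes and the lists were chosen with earlier results of these data known. Named are the 9 genes, the 2 highest and 2 lowest of each partner list by mean TPM, and the partners in the 12 gene pairs, apart from a few that are not reported here. Transcripts are named from 5% of a gene's TPM, and complete coding ones below that where start sites are compared. Neighbours in the order of levels were also compared under the other measures, an alternative chosen after seeing the data. The 4 B cell and macrophage markers, and the pan-T markers Cd3e and Cd2, were named after their values were seen.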

Additional observations from a re-analysis of the deposited data

How the results depend on the processing

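Under the other detection rules and with each library left out the 9 genes were detected, except that 8 reached 5 TPM (Tet1 was at 4.80 in library 2). The share of all genes under these rules was not computed. At 1 TPM in all 3 libraries it was 22.7% of annotated and 47.3% of protein-coding genes. Of the 13 ratios (the 12 gene pairs and the summed writers over TET genes) 12 exceeded the spread, and 12 or 13 did so under each alternative. Tet2/Tet3, not beyond it, passed with CPM (-0.85), the smaller table (-0.47) and without library 1 (from -0.41 to -0.19 over the libraries left out). Complete coding transcripts were not among the alternatives, and by them Tet2 was at 9.46 TPM and Tet3 at 19.1. Tdg/Tet2 was 0.13 with CPM, no longer beyond the spread, and reversed with the smaller table (-3.94), as did Tdg/Mbd4 (-1.25). Of the neighbours in the order, compared this way after seeing the data, Mbd2/Dnmt1 reversed with the smaller table (-1.06). Tdg/Tet3 turned negative with CPM (-0.73) and the smaller table (-4.41), and Dnmt3a/Tdg (-0.48) and Tet1/Dnmt3b (-1.41) with coding transcripts. The causes were not tested.

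Coding transcripts alone, here with incomplete ones included, by construction lowered mean TPM. It became 67.0 for Dnmt1, 30.9 for Dnmt3a, 4.90 for Dnmt3b, 1.94 for Tet1, 21.03 for Tet2, 24.8 for Tet3, 45.3 for Mbd1, 300.7 for Mbd2 and 43.0 for Tdg. These values are not those of the complete coding transcripts above, which gave 14.6 for Dnmt3a and 9.46 for Tet2. Posterior means moved Dnmt1 to 71.4, Mbd1 to 48.4 and Mbd2 to 364.7. Of the leading transcripts, shares by counts were 62.2% for Dnmt1-201, 17.2% for Dnmt3a-202, 35.6% for Tet1-202, 3.86% for Tet2-205, 16.6% for Tet3-201, 45.1% for Mbd1-204, 92.3% for Mbd2-201 and 84.7% for Tdg-201. By posterior mean they were 18.9% for Dnmt3b-207, 61.1% for Tet1-202 and 71.4% for Tdg-201.

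The 8 genes whose counts differed between libraries became 0 after division by the median overdispersion (1.85% of all genes), 3 with the smaller table (33.5%) and 7, 6 and 5 without library 1, 2 and 3 (48.6%, 41.1% and 45.01%), against 65.8% in the main test. No paired analysis was possible because the libraries form 1 group. Depth limits Tet1 and Dnmt3b most, at 302 to 547 and 355 to 478 expected counts.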

Other observations

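Genes that DNA methylation is known to silence outside the germline were at or near 0. None of 8 such genes was detected, and 5 of them (Mael, Sycp3, Tex101, Dppa3 and Asz1) had 0 expected counts in all 3 libraries of the larger table. The smaller table also held 0 for them except Sycp3, with 2, 10 and 1 counts. Dazl, an RNA-binding protein of germ cells, had 3, 1 and 16 expected counts, Taf7l had 1, 0 and 4, and the helicase gene Ddx4 had 0, 6 and 0. Methylation was not measured, so these values say nothing of how the genes were kept low.

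The enzymes that supply the methyl group were all detected, 7 of 7, with a median of 31.3 TPM. Mat2a, which makes the methyl donor S-adenosylmethionine, had 196 ± 2.62 TPM (SD, n = 3), and its regulatory subunit Mat2b had 210 ± 3.30. Shmt1, of folate metabolism, had 16.6 ± 0.763 TPM.

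Among the cytidine deaminases, Apobec3, a restriction factor against retroviruses, had 378.76, 393.98 and 365.63 TPM. Apobec1 had 15.8 ± 2.03 TPM and Apobec2 10.6 ± 2.46.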
